A study of Mus musculus with 10 samples.

Results

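Ribosomal protein paralogues are second copies of a ribosomal protein gene that encode a similar protein. The genes described here are Rpl22 and 5 paralogue genes, Rpl22l1, Rpl3l, Rpl7l1, Rpl39l and Rps27l, which are 6 of the 56691 genes counted. They were taken by name around Rpl22l1, which was singled out because it had the largest fall among the genes that passed the test after restraint. The other 5 were taken because they belong to the same kind of gene. The genes that the paralogues resemble, Rpl3, Rpl7, Rpl39 and Rps27, are given beside them as partners, and Rpl22 is the partner of Rpl22l1.

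The samples were ventral tegmental area tissue, the midbrain region that holds many dopaminergic neurons, from male C57BL/6 mice labelled WT. The sequenced RNA was the ribosome-associated fraction enriched from dopaminergic neurons expressing a construct named NBL10-HA. There were 5 libraries from mice after 30 min of acute restraint, a stressor in which the animal cannot move, and 5 from mice without restraint, labelled Ctrl. Both groups carried the construct. The way the construct was directed to dopaminergic neurons, the age of the mice and the number of mice per library are not given in the sources used here. The libraries are treated as separate samples, so p-values measure the spread between libraries, which may be partly technical.

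Totals ran from 56082358 to 86584968 counts per library. All 8 dopamine neuron markers had counts, including Th, the dopamine synthesis enzyme gene, which averaged 477 ± 65.3 CPM (counts scaled to the size of the library) after restraint, against 411 ± 78.6 CPM in controls (SD, n = 5 each). All 8 astrocyte markers had counts too, with Gfap at 2471 ± 316 CPM after restraint and 1919 ± 121 CPM in controls, which shows that other cell types contributed RNA. On the first principal component restraint 1 was the one distant library, at 92.1 against -19.2 to 4.08. Among counts of 1 to 30, the share of even counts was 80.0 to 84.8% after restraint and 76.8 to 79.8% in controls, with no overlap. The part of this difference in the results was not tested.

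A ribosome carries one copy of most of its proteins, and in mammals most of these are encoded by a single working gene. A few have a paralogue whose protein can take the same place or act in making the subunit. Rpl22 encodes an RNA-binding protein of the large subunit, and in mice the Rpl22 protein is known to hold down Rpl22l1 by binding its mRNA, so that Rpl22l1 rises when Rpl22 is deleted. Rpl3l is known as a gene of heart and skeletal muscle, Rpl39l as a gene of male germ cells, Rps27l as a target of the tumour suppressor p53, and Rpl7l1 as a relative of a yeast factor that helps to build the large subunit.

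The coding sequences show how far a read can tell each pair apart. Rpl22l1 has 122 codons and Rpl22 has 128, and their aligned coding bases were 72.7% identical, with a longest identical run of 26 bases. The window of 60 coding bases in which they are most alike is shown 5′ to 3′, with the 8 bases that differ in capitals. It spans coding bases 213 to 272 of Rpl22l1 (chromosome 3, plus strand) and 231 to 290 of Rpl22 (chromosome 4, plus strand), counted from the A of the start codon in the GENCODE M21 transcripts (GRCm38).
Rpl22l1: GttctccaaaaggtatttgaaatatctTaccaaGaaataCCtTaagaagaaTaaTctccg
Rpl22: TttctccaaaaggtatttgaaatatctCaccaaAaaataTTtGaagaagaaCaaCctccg

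The closest pair was Rpl39l and Rpl39, each of 51 codons and 85.0% identical over 153 coding bases, with a longest identical run of 38 bases. Their first 60 coding bases, on chromosome 16 (plus strand) and on chromosome X (minus strand), are shown the same way with 4 differing bases in capitals.
Rpl39l: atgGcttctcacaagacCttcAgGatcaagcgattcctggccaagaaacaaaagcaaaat
Rpl39: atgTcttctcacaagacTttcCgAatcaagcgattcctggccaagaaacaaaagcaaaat

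Identity was 76.2% for Rps27l and Rps27, 74.8% for Rpl3l and Rpl3, and 63.4% for Rpl7l1 and Rpl7. In all 5 pairs, 0 windows of 50 bases were shared between the transcripts of the paralogue and those of its partner. Windows were shared with other genes instead. Of 2254 distinct windows of Rpl22l1, 14.6% also occurred in a transcript of another gene, 284 of them in the gene model Gm15421. Gm15421 itself had 4 to 34 counts per library after restraint and 13 to 53 in controls, against 354 to 1491 and 942 to 2353 counts for Rpl22l1. The share was 3.47% for Rpl22, 11.2% for Rps27l, 6.75% for Rpl7l1 and 0% for Rpl3l and Rpl39l. It was higher for the partners Rpl3 (35.0%), Rps27 (25.0%) and Rpl7 (21%), whose levels are uncertain, since reads that fit several places were not counted.

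Rpl22l1 was lower in the restraint libraries than in the controls. Its log2 fold change was also lower than that of any of the 79 ribosomal protein genes measured outside the 6 members. Rpl22l1 was chosen for its fall, which favours this rank, so the rank is not a separate result. The gene lies on chromosome 3, 28859585 to 28861573 on the plus strand (GRCm39). It had 10.6, 9.75, 6.44, 7.13 and 17.4 CPM in restraint libraries 1 to 5, against 33.9, 29.4, 35.0, 30.6 and 16.4 CPM in control libraries 1 to 5. Restraint 5 and control 5 were within about 1 CPM of each other, and they are the one place where the groups overlapped: the other 4 restraint libraries lay below every control.

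Rpl22l1 averaged 10.3 ± 4.35 CPM after restraint, against 29.1 ± 7.44 CPM in controls (SD, n = 5 each), or 0.353 of the control mean. Its log2 fold change was -1.50 ± 0.24 (SE), with a 95% interval of -2.0 to -0.99. In edgeR's quasi-likelihood test the Benjamini-Hochberg adjusted p over 18440 genes was 0.0444. These are the values by which the gene was chosen, so they are a description and not evidence. In the same test 3 genes were called lower, which is 0.0163% of the genes tested, and 1 was called higher (0.00542%). In this ribosome-associated RNA, fewer cells of a type, less RNA per cell, less of it on ribosomes and a different degree of enrichment cannot be told apart. The called gene next to it by size of fall was Polr1c, at -0.59 ± 0.09. All 4 called genes had the same adjusted p, and just outside the threshold, at an adjusted p of 0.0611, stood Nfkbia (0.75 ± 0.13), Net1 (0.63 ± 0.11) and Ndfip1 (-0.54 ± 0.10). A lower log2 fold change than that of Rpl22l1 was listed for 57 genes, 0 of which passed (44 at an unadjusted p under 0.05), and their median control level was 0.361 CPM.

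Leaving out a library moved the log2 fold change of Rpl22l1 between -1.78, without restraint 5, and -1.38, without restraint 3. Without restraint 1, the distant one, it was -1.50 (edgeR adjusted p = 0.0854), and without control 5 it was -1.65 (adjusted p = 0.0124). The adjusted p was above 0.05 when restraint 1, 3 or 4 or control 1, 2, 3 or 4 was left out, and with the other 3 libraries left out in turn it stayed below. Over all the alternatives the adjusted p ran from 2.16e-13 to 0.298.

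**Figure D1:**
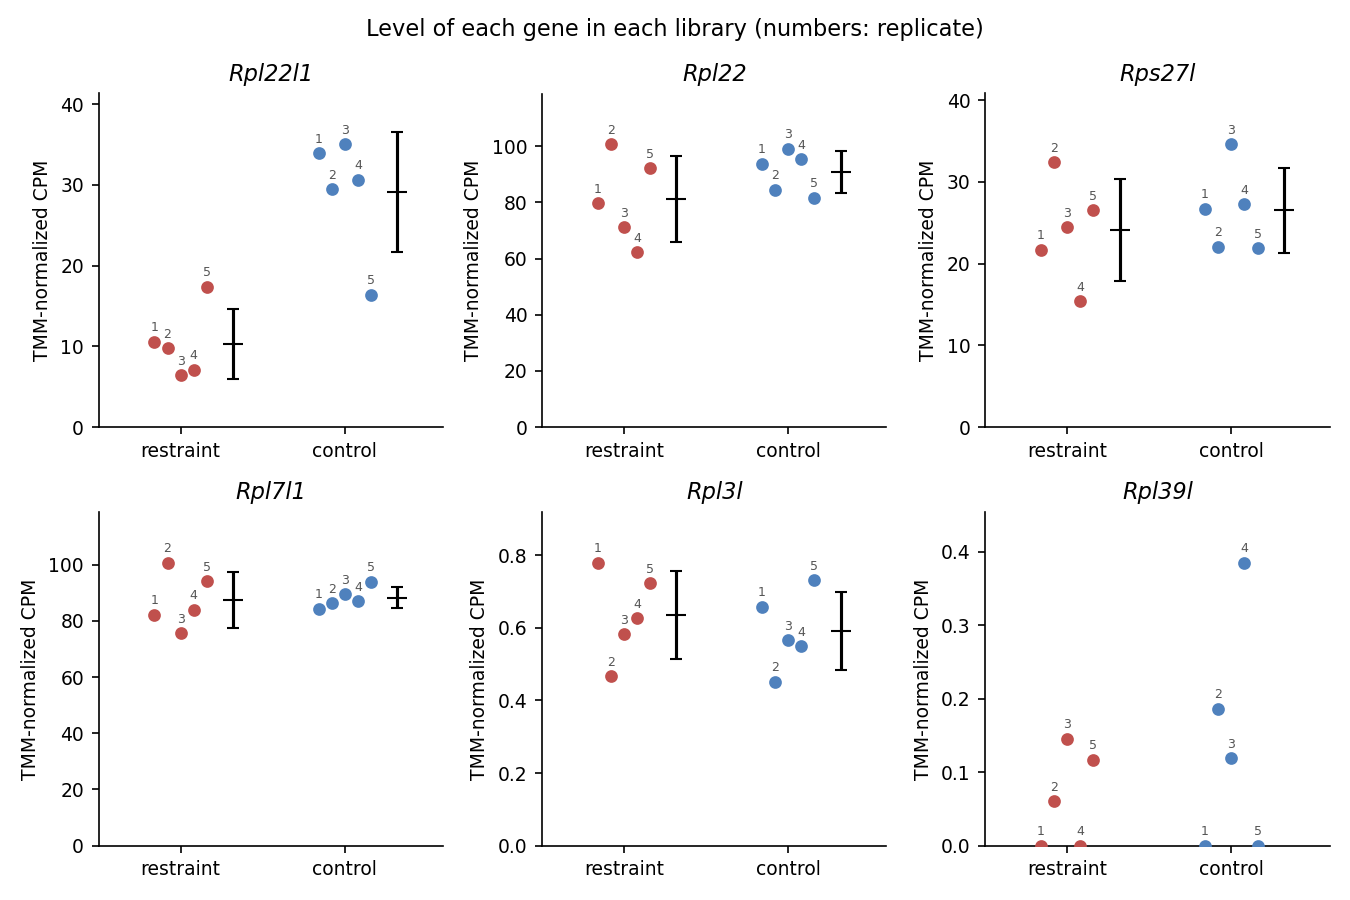
Each panel plots 1 gene in TMM-normalized CPM (axis from 0) for the 5 restraint libraries (red) and the 5 control libraries (blue), numbered by replicate, with the mean and SD in black except for Rpl39l. Rpl22l1 sits between 6.44 and 17.4 CPM after restraint, against 16.4 to 35.0 CPM in controls, while the groups overlap widely in the other 5 genes.

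How this gene is counted bears on that level. The deposited exon annotation of Rpl22l1 covers 1989 bases, which is 100% of the span of the gene, so reads from its introns were counted with those from its exons. GENCODE M21 lists 9 transcripts of Rpl22l1, of which 2 are protein coding, 3 are retained introns and 1 is a target of nonsense-mediated decay. The counts cannot tell these forms apart. For Rpl22 the counted exons cover 35.0% of the span (chromosome 4, 152410199 to 152418528), for Rpl7l1 39.9%, for Rps27l 23.8%, for Rpl3l 19.7% and for Rpl39l 17.7%. Another gene model, Gm33051 on the minus strand, shares 7.99% of the exon bases of Rpl22l1 and had 8 counts in all 10 libraries.

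Rpl22 itself differed less. It had 79.6, 101, 71.2, 62.3 and 92.1 CPM in restraint libraries 1 to 5, against 93.8, 84.5, 99.1, 95.2 and 81.6 CPM in control libraries 1 to 5. The highest and the lowest library were both restraint libraries, and the controls fell inside their range. The mean was 81.2 ± 15.4 CPM after restraint, against 90.8 ± 7.46 CPM in controls (SD, n = 5 each), a log2 fold change of -0.16 ± 0.11 with a 95% interval of -0.40 to 0.08 (edgeR adjusted p = 0.631). Of the 79 other ribosomal protein genes, 52 had a lower log2 fold change than Rpl22.

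Per kilobase of counted exon, Rpl22l1 made up 15.3 ± 3.99% of the summed level of the pair after restraint, against 31.4 ± 4.96% in controls (SD, n = 5 each). The share was 16.3, 12.4, 11.7, 14.3 and 21.7% in restraint libraries 1 to 5, and 34.6, 33.8, 34.1, 32 and 22.7% in control libraries 1 to 5. The groups did not overlap in this share, although restraint 5 and control 5 were again next to each other. On the log2 scale the ratio of Rpl22l1 over Rpl22 was -2.50 ± 0.42 after restraint and -1.14 ± 0.36 in controls, and the difference of -1.36 lay between -1.53 and -1.26 whichever library was left out. Since Rpl22l1 was chosen on this contrast, no test is given. The 2 genes together held 33.0 ± 6.86 CPM per kilobase after restraint (25.0 to 40.4) and 45.8 ± 6.05 in controls (36.3 to 51.6), so that the groups overlapped in the sum.

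**Figure D2:**
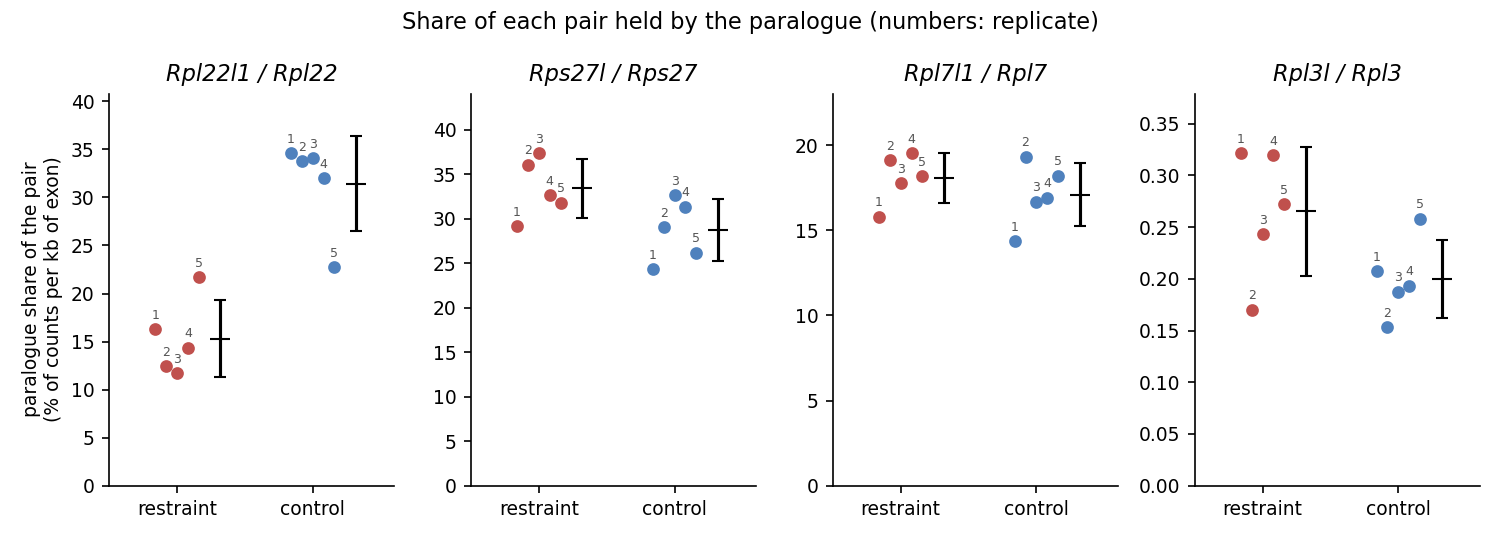
Each panel plots the share of 1 pair that the paralogue holds, in % of counts per kilobase of exon (axis from 0), for the 5 restraint libraries (red) and the 5 control libraries (blue), numbered by replicate, with mean and SD in black. The share of Rpl22l1 is 11.7 to 21.7% after restraint and 22.7 to 34.6% in controls, and in the other 3 pairs the groups overlap.

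Rps27l, the small subunit paralogue, differed by less than the libraries of a group differed among themselves. It had 21.7, 32.4, 24.5, 15.4 and 26.6 CPM in restraint libraries 1 to 5, against 26.7, 22.1, 34.6, 27.3 and 21.9 CPM in control libraries 1 to 5. Restraint 4 was the lowest library and control 3 the highest, and the rest were mixed. The log2 fold change was -0.14 ± 0.17 with a 95% interval of -0.49 to 0.21 (edgeR adjusted p = 0.816), and with the length trend of each library removed it was -0.00. Its partner Rps27, a zinc finger protein gene of the small subunit, averaged 61.3 ± 14.4 CPM after restraint, against 84.3 ± 14.6 CPM in controls (SD, n = 5 each; log2 -0.46 ± 0.15, adjusted p = 0.224).

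In the pair, Rps27l held 33.4 ± 3.31% after restraint, against 28.7 ± 3.47% in controls (SD, n = 5 each). Ranges of 29.2 to 37.4% and 24.4 to 32.7% overlapped, and the mean log2 ratio was higher after restraint by 0.32. Here the partner had the lower fold change, the reverse of the Rpl22l1 and Rpl22 pair.

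Rpl7l1 had the lowest relative spread of the 6 members in both groups. It had 82.1, 101, 75.6, 83.9 and 94.0 CPM in restraint libraries 1 to 5, against 84.3, 86.2, 89.5, 86.9 and 93.9 CPM in control libraries 1 to 5. The controls varied by 4.20% (SD over mean) and the restraint libraries by 11.4%, around nearly equal means of 87.2 and 88.2 CPM. Its log2 fold change was -0.01 ± 0.08, and the 95% interval of -0.19 to 0.16 does not include a change of the size of Rpl22l1 (edgeR adjusted p = 0.973). The partner Rpl7, a large subunit protein gene, stood at -0.12 ± 0.10 (adjusted p = 0.674). Rpl7l1 held 18.1 ± 1.45% of its pair after restraint, against 17.1 ± 1.87% in controls (SD, n = 5 each), with overlapping ranges.

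Rpl3l and Rpl39l were the members with the fewest counts. Rpl3l had 54, 31, 32, 42 and 62 counts in restraint libraries 1 to 5 and 42, 34, 38, 40 and 42 counts in control libraries 1 to 5. That is 0.636 ± 0.122 CPM after restraint, against 0.591 ± 0.107 CPM in controls (SD, n = 5 each), a log2 fold change of 0.11 ± 0.35 with a wide 95% interval of -0.63 to 0.85 (edgeR adjusted p = 0.947). Its partner Rpl3, which encodes a protein near the peptidyl transferase centre, had 470 ± 59.0 CPM after restraint and 572 ± 27.1 CPM in controls, so Rpl3l held 0.265 ± 0.0625% of the pair after restraint and 0.200 ± 0.0382% in controls. Rpl3 had a log2 fold change of -0.28 ± 0.09 and did not pass (adjusted p = 0.195).

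Rpl39l had 0, 4, 8, 0 and 10 counts in restraint libraries 1 to 5 and 0, 14, 8, 28 and 0 counts in control libraries 1 to 5. It was the 1 member of the 6 that the filter on low counts removed, so it has no fold change, and its ratio to Rpl39 was not computed. In the 4 libraries at 0, a count of 0 allows a level of up to 0.0890 and 0.0900 CPM (restraint 1 and 4) and 0.0955 and 0.103 CPM (control 1 and 5), for 3 read pairs and counting error alone. The partner Rpl39, which encodes a short protein that lines the exit tunnel of the ribosome, had 25.9, 42.7, 30.9, 22.0 and 47.6 CPM in restraint libraries 1 to 5, against 66.0, 48.4, 69.0, 59.1 and 48.7 CPM in control libraries 1 to 5. Every restraint library lay below every control. The log2 fold change of Rpl39 was -0.78 ± 0.18 (edgeR adjusted p = 0.106, DESeq2 adjusted p = 0.0367), so the call depends on the test.

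Of the 6 members, 5 passed the filter and 1 of these, Rpl22l1, passed the edgeR test, where 0.0217% of all genes did in either direction. Rpl22l1 was chosen by this same test, so its call was fixed in advance and is not a result about the members. None of the 4 partners passed with edgeR (0), 3 were lower at an unadjusted p under 0.05, where 6.04% of all genes were, and 1 of them, Rpl39, passed with DESeq2 as lower, where 1.6% of the genes given an adjusted p did. Complete separation of the groups, with every restraint library below every control, was found for 0 of the 5 members and for 2 of the 4 partners, Rpl3 and Rpl39, against 1.36% of the genes tested. Among the 79 ribosomal protein genes outside the members, partners included, it was found for 10. The opposite separation was found for 0 of the 9 genes, against 1.25%.

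**Figure D3:**
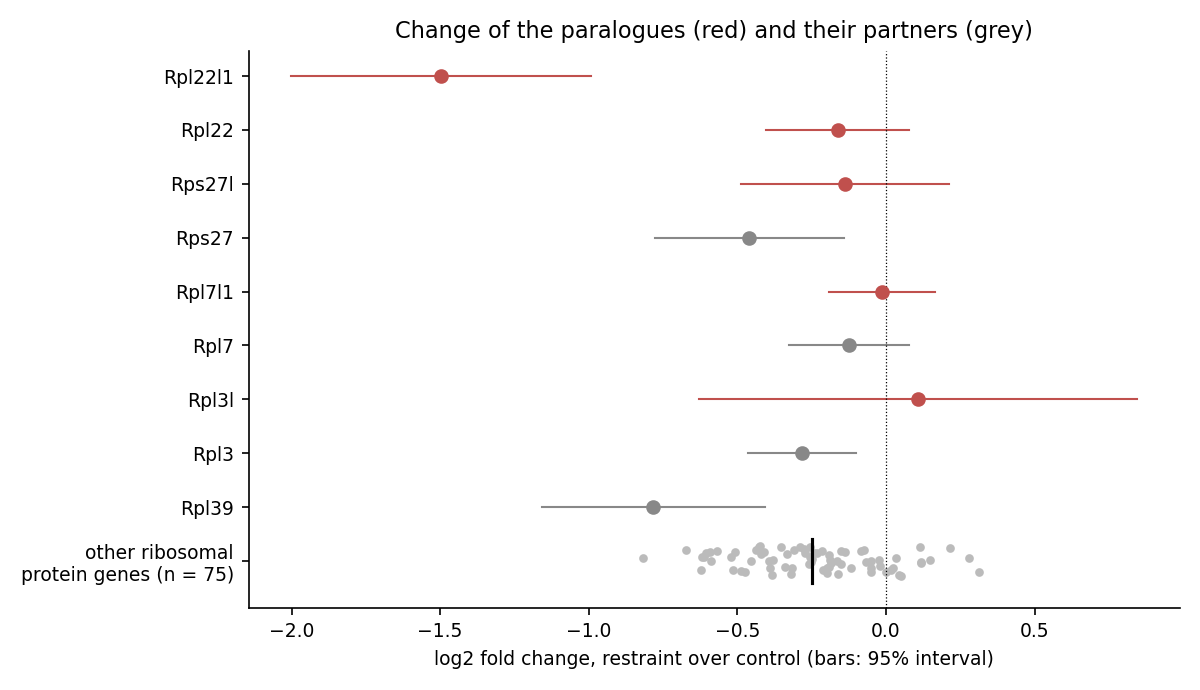
The plot shows log2 fold changes of restraint over control with 95% intervals for 5 paralogue group genes (red) and their 4 partners (grey), and in the lowest row 75 other ribosomal protein genes with their median as a black line (vertical scatter is random). Rpl22l1, which was chosen for its fall, lies at -1.50. The median of the other ribosomal protein genes is -0.25, and their lowest value is -0.82 for Rplp1.

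Compared per kilobase of counted exon in controls, the levels ran from Rpl3 (180 ± 8.54 CPM per kilobase) and Rpl7 (124 ± 14.7) through Rps27 (80.9 ± 14) and Rpl39 (40.6 ± 6.65) to Rps27l (32.5 ± 6.35), Rpl22 (31.2 ± 2.56), Rpl7l1 (25.2 ± 1.06) and Rpl22l1 (14.6 ± 3.74). Rpl3l (0.360 ± 0.0651) and Rpl39l, at 0 in 2 controls, came last. Rps27l and Rpl22 did not differ beyond their spread, nor did Rpl39 and Rps27l by more than the sum of their SDs. Of the 79 other ribosomal protein genes, 9 had a lower control level per length than Rpl22 and 5 a lower one than Rpl22l1, where the median was 107 CPM per kilobase. The counted length takes in introns to a different extent in each gene, and this enters every level per length.

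After restraint the order of the means was the same for the 3 highest and the 3 lowest genes. Rpl22l1 stood at 5.16 ± 2.19 CPM per kilobase (SD, n = 5), below the 25.0 ± 2.85 of Rpl7l1. Rpl39, at 23.6 ± 7.63, came to lie below Rps27l at 29.5 ± 7.68, Rpl22 at 27.9 ± 5.30 and Rpl7l1.

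**Figure D4:**
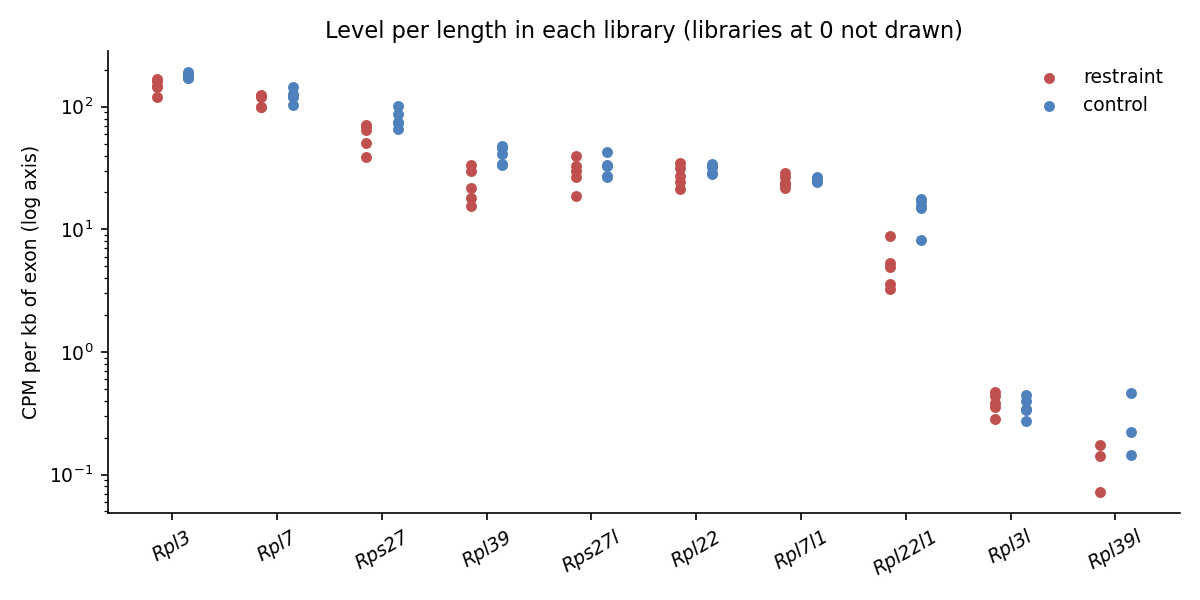
Each point is 1 library in CPM per kilobase of counted exon (log axis), restraint in red to the left of control in blue, with genes ordered by their control mean. The 4 libraries in which Rpl39l had 0 counts are not drawn. Rpl22l1, chosen for its fall, has the largest ratio between its 2 group means among the genes above 1 CPM per kilobase. Its groups overlap, and those of Rpl39 and Rpl3 do not.

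The start of the Rpl22l1 transcript was looked at because mRNAs of ribosomal proteins typically begin with a run of pyrimidines, through which their translation is controlled. In the RefSeq promoters (GRCm38.p6), the 30 bases around the annotated start of Rpl22l1, chr3:28805493-28805522 on the plus strand, hold a run of 10 pyrimidines (C or T), and those around the start of Rps27, chr3:90213634-90213663 on the minus strand, one of 9. The runs are in capitals.
Rpl22l1: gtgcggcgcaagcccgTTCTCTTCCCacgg
Rps27: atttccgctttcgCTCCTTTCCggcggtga

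A run of 10 or more, read on the strand that has the sequence of the mRNA, was found in 5.34% of the 32851 promoters in the same window. A run of 8 or more was found in 12%. The longest run was 9 for Rps27l, 8 for Rpl39, 7 for Rpl39l, 5 for Rpl22 and for Rpl3l, and 2 for Rpl7l1. Each window holds 15 bases before the annotated start, so a run can lie outside the mRNA. The runs of Rps27l and Rpl39l lay wholly before the annotated start. Rps27l, Rpl22 and Rpl3l each had a further annotated start, where the longest run was 4. A match describes these letters alone.

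Most ribosomal protein genes had negative log2 fold changes, all of smaller size than that of Rpl22l1. The choice of Rpl22l1 by its fall favours that comparison. Of 80 measured genes, Rpl22 included, 68 had a negative log2 fold change, where 50.4% of all genes did, and the median was -0.25, against -0.00 for all genes. The count past the edgeR threshold was 0. At an unadjusted p under 0.05, 44 were lower, where 6.04% of all genes were, and DESeq2 called 23 lower, where it called 1.6%. Among those with the smallest p were Rplp1 of the stalk (-0.82 ± 0.16) and Rps13 of the small subunit (-0.61 ± 0.12), each with an edgeR adjusted p above 0.05.

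The mean log2 CPM of the 79 ribosomal protein genes outside the members was 6.78, 7.13, 6.81, 6.55 and 7.02 in restraint libraries 1 to 5, against 7.14, 6.94, 7.26, 7.13 and 7.13 in control libraries 1 to 5. Restraint 2 and 5 lay within the control range and the other 3 below it. Control 5, which had the lowest Rpl22l1 level of the controls, had the same mean as control 4. The part of this mean in the Rpl22l1 result was not tested.

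The dependence of log2 CPM on exon length varied from library to library, with a slope of -0.0674 to 0.0925 log2 units per doubling of length after restraint and of -0.0679 to 0.0670 in controls, so the groups overlapped. With each library's length trend removed, the log2 fold change of Rpl22l1 was -1.50 ± 0.23.

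**Figure D5:**
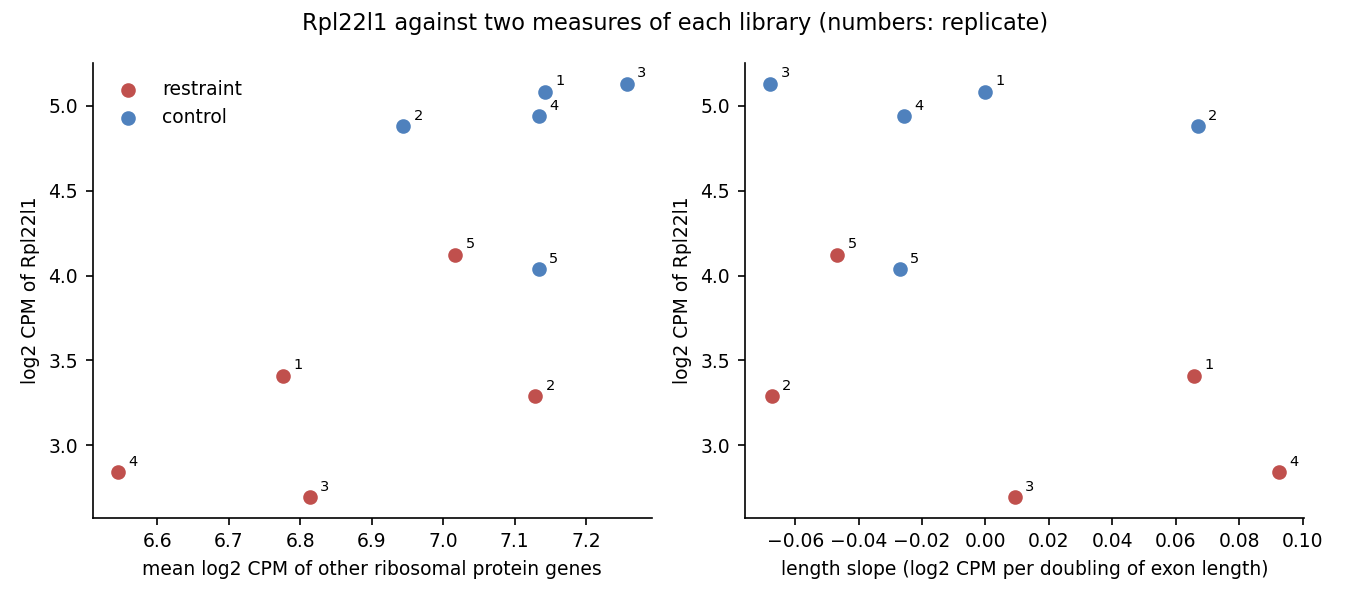
The log2 CPM of Rpl22l1 (y axis of both panels) is plotted against the mean log2 CPM of 79 other ribosomal protein genes (left) and against the length slope of the library (right), restraint in red and control in blue, numbered by replicate. The restraint and control libraries overlap on both x axes, and on the y axis they overlap through restraint 5 and control 5.

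Astrocyte markers summed to 5633 to 6753 CPM after restraint and 4739 to 5581 CPM in controls, with no overlap in the sum. All 8 markers entered it, none of them at 0. The most abundant weigh most in a sum, such as Gfap (2471 against 1919 CPM) and Clu (1403 against 1178 CPM). Of the 8 markers, 6 had a positive log2 fold change and 2 a negative one, from -0.07 to 0.37. None of the 8 passed with edgeR (0), 2 were higher at an unadjusted p under 0.05, where 5.64% of all genes were, and DESeq2 called 1 higher, where it called 1.16%. Of the 8 dopamine neuron markers, 4 were higher at an unadjusted p under 0.05 and DESeq2 called 2 higher, and of the 8 oligodendrocyte markers 3 and 1. Of the 8 vascular markers 3 were higher and 1 lower by that measure, and DESeq2 called 0. Flt1 and Pecam1, which were among the higher ones, were given no adjusted p by DESeq2 and could not be called. The edgeR test called 0 in each of these lists. The median log2 fold change was 0.26 for dopamine neuron markers, 0.20 for astrocyte, 0.05 for oligodendrocyte and 0.20 for vascular markers. Their part in the Rpl22l1 result was not tested. The groups overlapped in the sums of all lists but that of astrocytes. Dopamine neuron markers summed to 1172 to 1632 CPM after restraint and 982 to 1469 CPM in controls, GABA neuron markers to 1404 to 1737 and 1298 to 1638 CPM, and glutamate neuron markers to 355 to 481 and 411 to 442 CPM. Oligodendrocyte markers gave 1520 to 2104 and 1595 to 1945 CPM, microglia markers 22.3 to 30.4 and 22.2 to 35.0 CPM, and vascular markers 29.2 to 39.6 and 30.2 to 37.4 CPM.

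Markers of the tissues in which Rpl3l and Rpl39l are known were low. The 12 striated muscle markers summed to 7.49 to 13.6 CPM after restraint and 8.89 to 12.7 CPM in controls. The 10 male germ cell markers summed to 3.03 to 4.27 CPM and 2.76 to 4.98 CPM, with 5 of them (Prm2, Tnp1, Tnp2, Acrv1 and Ldhc) at 0 in every library.

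Lists of genes from related pathways held none that passed. Of 37 measured ribosome biogenesis genes 0 passed with edgeR or DESeq2. At an unadjusted p under 0.05, 3 were higher and 2 lower, where 5.64% and 6.04% of all genes were. Their median log2 fold change was 0.04. The smallest p were those of Ltv1, a small subunit assembly factor (0.30 ± 0.09), Eif6, which keeps new large subunits from joining too early (-0.39 ± 0.12), Nop56 of the box C/D particles (0.26 ± 0.09) and Ubtf, a transcription factor of RNA polymerase I (0.25 ± 0.09), none of which passed.

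Among 22 p53 target genes, the pathway to which Rps27l belongs, 0 passed in edgeR and in DESeq2 and 1 was higher at an unadjusted p under 0.05, against the 5.64% of all genes. Their median was -0.01. Tigar (0.21 ± 0.10), Ddit4 (0.19 ± 0.09), Polk (-0.23 ± 0.12) and Fas (0.32 ± 0.18) had the smallest p. Among 15 genes of nonsense-mediated decay, the pathway that removes one annotated form of Rpl22l1, 0 passed in edgeR and in DESeq2, and 1 was higher and 1 lower at an unadjusted p under 0.05, against 5.64% and 6.04% of all genes. Their median was 0.01. Among those with the smallest p were Eif4a3 of the exon junction complex (-0.28 ± 0.08), the helicase gene Upf1 (0.23 ± 0.11) and Magohb (-0.30 ± 0.19).

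Over the 10 libraries, the log2 CPM of Rpl22l1 had a Pearson correlation of 0.887 with Rpl39, 0.843 with Rpl3, 0.799 with Rps27, 0.686 with Rpl22, 0.577 with Rpl7, 0.467 with Rps27l, 0.227 with Rpl7l1 and -0.165 with Rpl3l. After each group's mean was subtracted, the value was 0.697 for Rpl22, 0.679 for Rpl39, 0.619 for Rps27 and 0.582 for Rpl3. All these values share the same libraries, which differ in group, depth and length slope, so they are a description.

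Among 12162 genes with a mean log2 CPM of at least 1, predicted gene models left out, the 5 with the pattern most like Rpl22l1 were Ndufa9, a complex I subunit gene (r = 0.985), Prrc2c (0.984), Wdr45b, an autophagy gene (0.972), the noncoding host gene Mir22hg (0.972) and Ndfip1, an adaptor gene of NEDD4 family ubiquitin ligases (0.972). Each was lower after restraint by a smaller amount than Rpl22l1, with log2 fold changes from -0.54 (Ndfip1) to -0.31 (Prrc2c), and did not pass. Rpl22l1 was chosen for its fall, and group means were left in here. Genes picked for likeness to it were therefore bound to be lower, so their direction is not a separate result. After each group's mean was subtracted the 5 closest were Zfp706 (0.986), Ndufa9 (0.952), Traf2 (0.939), Clint1 (0.937) and Wdr92 (0.935). Ndufa9, at 108 ± 10.9 CPM after restraint, against 138 ± 11.4 CPM in controls (SD, n = 5 each), is the one gene in both sets.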

How the data were processed

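Whole-number read counts per gene and library were deposited by the authors. Per the file headers they come from featureCounts 2.0.3 on exons of GENCODE M30 with paired-end input and no option for strand, read pairs or multi-mapping reads, so both mates were counted and multi-mapping reads were not. FastQC, Trimmomatic, STAR and the build mm10 are named in the submitters' processing notes. GENCODE M30 annotates GRCm39, so positions from the table are in that build and positions of sequences in GRCm38.

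Libraries were grouped by their labels. Symbols came from GENCODE M21 by identifier for 52073 of 56691 genes, the 6 members included. After filterByExpr (count minimum 10, total minimum 15) and TMM scaling, 18440 genes were tested with edgeR 4.0.16 (glmQLFit, glmQLFTest) in R 4.3.3, with group as the term and Benjamini-Hochberg adjustment at a threshold of 0.05. Standard errors were derived from the fold change and its F statistic. CPM are TMM-normalized, log2 CPM used a prior count of 2, and log2 ratios of pairs a pseudocount of 0.5 counts. Sequences were compared in Python 3.11.15 from GENCODE M21 transcripts and RefSeq promoters, which 8 of the 10 genes had. Since a read pair adds 2 counts, the limits given for a count of 0 rest on 3 read pairs, or 6 counts, of the library total, and cover counting error only. The edgeR test was tested on simulated data.

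The members, the partners and 13 further lists were chosen with earlier results of these data known. Named are the members, the partners, the 4 genes with the smallest p of each list other than markers, and the 5 genes most correlated with Rpl22l1, with and without group means. Some genes that this rule takes are left out of the text. Other named genes (Polr1c, Nfkbia, Net1, those sharing sequence and single markers) were chosen after their values were seen. Alternatives were other normalizations and filters, DESeq2 1.42.0, limma-voom 3.58.1, robust estimation, a replicate block, halved counts, removal of length trends (lowess, span 0.3) and leaving out each library.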

Additional observations from a re-analysis of the deposited data

Results flagged for a closer look

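The log2 ratio of Rpl22l1 over Rpl22 in control 5 was -1.76, against -1.09 to -0.92 in the other 4 controls, a gap of 0.800 of the whole range of the group, above the limit of 0.71 for 5 libraries. It lay next to the highest restraint library, restraint 5, at -1.85. Of 26 groups of 5 libraries looked at this way, 1 stood out, and chance gives about 1 in 20.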

How the results depend on the processing

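The count of genes past the threshold depended on the processing. It was 1 higher and 3 lower with edgeR as described, 5 and 12 with library size only, 103 and 199 with every gene of at least 1 count, 139 and 192 with DESeq2, 21 and 66 with limma-voom and quality weights, and 20 and 53 with length trends removed. It was 0 and 0 with edgeR's robust estimation (2154 at an unadjusted p under 0.05) and with the replicate block (1704). Leaving out 1 library gave 0 to 9 higher and 0 to 83 lower: 9 and 83 without restraint 5, 4 and 16 without control 5, 2 and 15 without restraint 2, 2 and 0 without restraint 1, and 0 and 0 without each of the other 6 (1631 to 2258 at an unadjusted p under 0.05). The cause of these differences was not tested.

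Rpl22l1 kept its negative log2 fold change in 22 of 22 alternatives and its call in 13. The call ended with robust estimation (-1.50, adjusted p = 0.0995), with the replicate block (-1.56, adjusted p = 0.298) and when any one of 7 libraries was left out (-1.78 to -1.38 over all 10). Same-numbered libraries correlated at -0.164 to 0.027 after group means were removed. Of the 5 restraint libraries, 0 correlated best with the control of their own number. So few libraries cannot decide whether the replicate numbers pair them, for example by a shared day or batch, and the labels used here do not say. With halved counts the log2 fold change of Rpl22l1 was -1.50 (edgeR adjusted p = 0.0357).

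Rpl39, which did not pass, passed in 5 alternatives (DESeq2, at least 1 count, quality weights, length trends removed, and without restraint 5, where the log2 fold change was -0.95 with an adjusted p of 0.0181), and Rps27 in 1 (at least 1 count, adjusted p = 0.00593). Rpl22, Rpl7l1, Rps27l, Rpl3l, Rpl3 and Rpl7 passed in 0 of their alternatives. The differences in log2 ratio of the 4 pairs stayed within 1 pooled SD of the main value under every alternative run. These were counts without division by exon length, a pseudocount of 1, medians, and leaving out each library. The first cannot change a difference between groups, and the second hardly moves it at these counts. Leaving out 1 of 5 libraries cannot move a group mean far enough to reach 1 pooled SD. None of these is therefore a check against that limit, and only the medians could have passed it. Rpl3l has no value under the filter of at least 1 CPM in 5 libraries, and DESeq2 gave it no adjusted p, so neither could call it. For Rpl3l and Rpl39l depth limits what can be seen.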
